A study of Mus musculus with 8 samples.

Results

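The snoRNA host noncoding genes are spliced RNA genes whose introns carry small nucleolar RNAs (snoRNAs). The 8 genes described here, *Gas5*, *Snhg1*, *Snhg3*, *Snhg4*, *Snhg5*, *Snhg6*, *Snhg8* and *Snhg12*, were taken by their symbols from a table of 50902 genes, and the group was chosen with earlier results of these data known. All 8 had an entry. Of these, 7 had a mean of at least 0.1 RPKM (reads scaled to gene length and library size) and were tested together with all other genes above that level, 8997 in all. *Snhg3* was not tested.

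RNA was sequenced from mouse E14 ESCs, an established embryonic stem cell line kept in the ground state by LIF and the inhibitor pair 2i. The data comprised 4 libraries of ESC + F/H-BAZ2ArWT and 4 of ESC + F/H-BAZ2ArΔTAM. Both lines carried an siRNA-resistant Flag/HA-tagged *Baz2a* transgene, full length or without the TAM domain, the RNA-binding part of this chromatin protein. Cells of both lines received siRNA against endogenous *Baz2a* and were collected 3 days after transfection. The methods describe single-cell clones, so the genotype and the clone cannot be told apart. The sources used here do not say that the 4 libraries of a line came from separate cultures, and p-values then measure only the spread between these libraries, which may be technical. Because these are bulk samples, fewer cells that express a gene and less RNA per cell cannot be told apart.

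The reads on genes numbered 7.26 M to 7.69 M per library in ESC + F/H-BAZ2ArWT and 6.56 M to 8.66 M in ESC + F/H-BAZ2ArΔTAM. *Baz2a*, counted over the transgene and any remaining endogenous transcript, was at 10.5 ± 0.529 RPKM (SD, n = 4) in ESC + F/H-BAZ2ArWT and at 18.3 ± 0.824 RPKM (SD, n = 4) in ESC + F/H-BAZ2ArΔTAM. All 6 ESC markers examined were expressed in each library, with at least 1804 reads per gene, and their summed level was 80.5 to 83.3 RPKM in ESC + F/H-BAZ2ArWT and 68.5 to 74.1 RPKM in ESC + F/H-BAZ2ArΔTAM. The summed level of 10 markers of differentiated cells was 1.71 to 1.85 RPKM and 1.20 to 1.55 RPKM, each with at least 1 read in every library. The higher *Baz2a* level and the lower marker sums move with the groups in each result given here, and their part in the results was not tested.

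In vertebrates, most snoRNAs are cut out of the introns of longer genes after splicing. C/D box snoRNAs guide 2′-O-methylation and H/ACA box snoRNAs guide pseudouridylation of ribosomal RNA, and the host's own spliced exons form the polyadenylated transcript that an RNA-seq library of this kind reads. Known host transcripts often begin with a 5′ terminal oligopyrimidine tract, as the mRNAs of ribosomal proteins do, and several, *Gas5* among them, are degraded by nonsense-mediated decay (NMD) when they are translated. Their level is therefore known to depend on transcription, on translation and on decay.

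GENCODE vM21, which uses the same mm10 assembly, places 29 genes of the type snoRNA inside the 8 hosts, each on the strand of its host. *Gas5* holds 9 of them, *Snhg1* holds 8, *Snhg12* holds 4, *Snhg3*, *Snhg4* and *Snhg5* hold 2 each, and *Snhg6* and *Snhg8* hold 1 each. One snoRNA per host is printed here to show what the hosts carry, with both copies of *Snhg5* and except for *Snhg3* and *Snhg4*. The sequences are those of GENCODE vM21 transcripts, 5′ to 3′. Capitals mark the C box TGATGA and the D box CTGA of C/D snoRNAs, or the ACA near the end of H/ACA snoRNAs, as found by a search for these letters.
Snord47, in *Gas5*, chr1:161038082-161038158, plus strand: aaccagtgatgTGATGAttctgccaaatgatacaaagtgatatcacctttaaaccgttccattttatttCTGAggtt
Gm25855, in *Snhg1*, chr19:8723993-8724064, plus strand: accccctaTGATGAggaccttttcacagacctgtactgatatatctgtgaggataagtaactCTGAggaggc
Snord50a, in *Snhg5*, chr9:88521529-88521600, minus strand: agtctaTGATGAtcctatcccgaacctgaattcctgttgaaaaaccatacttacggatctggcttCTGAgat
Snord50b, in *Snhg5*, chr9:88521797-88521868, minus strand: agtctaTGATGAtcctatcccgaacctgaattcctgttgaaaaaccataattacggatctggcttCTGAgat
Snord87, in *Snhg6*, chr1:9942463-9942549, minus strand: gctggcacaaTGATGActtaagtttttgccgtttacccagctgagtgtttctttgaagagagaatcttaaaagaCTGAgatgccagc
Snora24, in *Snhg8*, chr3:123507937-123508066, minus strand: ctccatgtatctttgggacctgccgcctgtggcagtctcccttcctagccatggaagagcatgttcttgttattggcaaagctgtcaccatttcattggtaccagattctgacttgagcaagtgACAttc
Snora16a, in *Snhg12*, chr4:132309464-132309600, plus strand: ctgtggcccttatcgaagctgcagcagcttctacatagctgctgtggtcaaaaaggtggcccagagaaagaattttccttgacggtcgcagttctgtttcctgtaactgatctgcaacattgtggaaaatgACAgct

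Snord50a and Snord50b are both 72 bases long and differ by the single substitution C50A, counted from 1 at the 5′ end of Snord50a.

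Of the 29 snoRNA genes, 2 had any read in the table, *Snord87* inside *Snhg6* and *Snora16a* inside *Snhg12*. For *Snord87*, a C/D box snoRNA, 11, 12, 13 and 6 reads were counted in the ESC + F/H-BAZ2ArWT libraries and 15, 11, 21 and 20 in the ESC + F/H-BAZ2ArΔTAM libraries. The ranges overlap, and its log2 fold change between the lines (log2FC, on the scale of log2(RPKM + 0.1)) was 0.68 with a standard error (SE) of 0.25. It did not pass the test in limma after Benjamini-Hochberg adjustment over all genes tested (limma adjusted p = 0.0731). With 1 library left out its log2FC ran from 0.43, without ESC + F/H-BAZ2ArWT replicate 4, to 0.81. *Snora16a*, an H/ACA box snoRNA, had 21, 15, 23 and 25 reads against 16, 22, 22 and 33 reads, with a log2FC of 0.14 (SE 0.20, limma adjusted p = 0.624). Neither difference was detectable at this depth. The libraries hold polyA-enriched RNA, so these reads may come from unspliced host RNA and not from the mature snoRNA. Their source was not tested, and the counts are not a measure of snoRNA level.

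**Figure D1:**
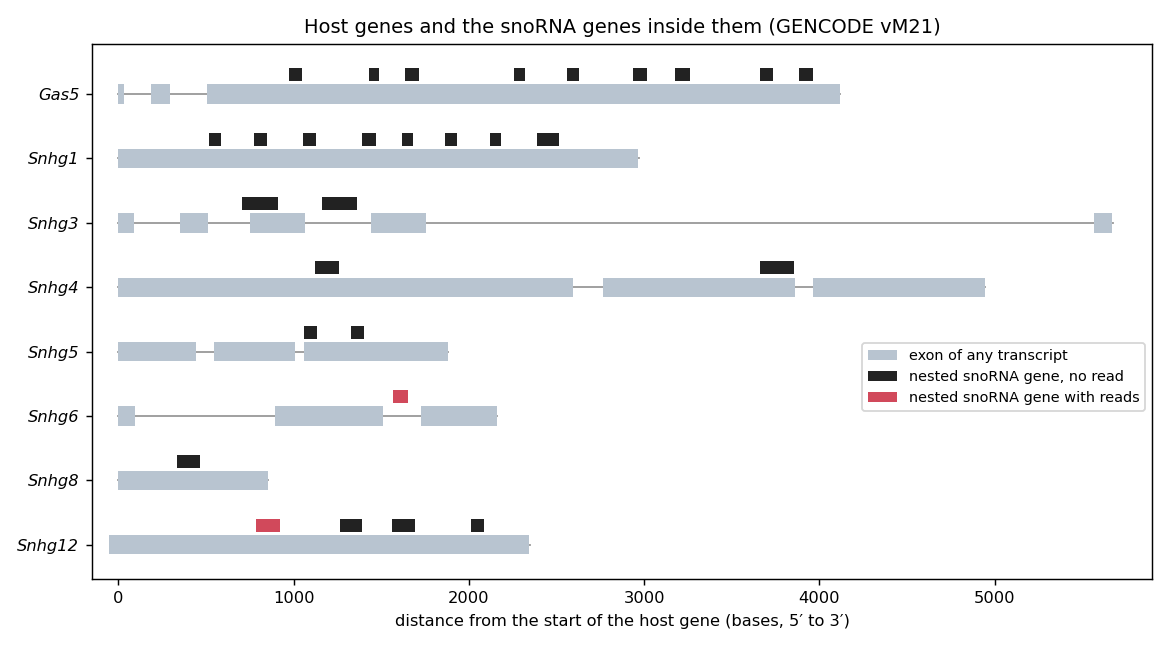
The 8 host genes drawn to scale from their 5′ start, in bases. Grey boxes are exons of any GENCODE vM21 transcript and the small boxes above each gene are the 29 nested snoRNA genes, 2 of which (red) had reads in the table. In *Gas5*, *Snhg1*, *Snhg4*, *Snhg5*, *Snhg8* and *Snhg12* annotated exons run across all snoRNA genes of the host.

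Transcripts with retained introns are annotated for 5 hosts, 20 of 25 transcripts of *Gas5* and 14 of 18 of *Snhg1* among them. Exons of any transcript cover 91.3% of the span of *Gas5* and 100.0% of that of *Snhg1*. They also cover 100.0% of the span of *Snhg12*, for which no transcript of 10 is annotated with a retained intron. In this annotation 26 of the 29 snoRNA genes lie fully inside exons of their host, and 1 of these 26 had a read. Of the 2 that lie outside exons, *Snord87* had reads and *Snora73b* of *Snhg3* had none. The 1 that lies partly inside exons, *Snora73a* of *Snhg3*, had none. For comparison, of snoRNA genes inside other hosts with at least 1 RPKM, 3 of 82 (3.66%) had a read when they lay fully inside exons of the host, and 77 of 83 (92.8%) when they lay outside exons. How the authors assigned reads that fall on 2 genes is not given in the sources used here, and a read listed for a host may come from a snoRNA within it.

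The start regions of the hosts were read from RefSeq promoter sequences (GRCm38.p6, the mm10 assembly), which hold 7 windows for 6 of the 8 genes, 2 of them for *Gas5*. *Snhg4* and *Snhg6* had no window. Each stretch printed here runs from 40 bases before the RefSeq start to 30 bases after it. Capitals mark TATAAA or TATATA in the 50 bases before the start on the strand of the gene, and a tract of at least 5 pyrimidines (C or T) that opens with C and begins within 15 bases of the start, the letters with which terminal oligopyrimidine mRNAs begin.
Gas5, upstream start, chr1:161034561-161034630, plus strand: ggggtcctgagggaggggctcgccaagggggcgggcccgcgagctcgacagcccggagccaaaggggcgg
Gas5, downstream start, chr1:161035126-161035195, plus strand: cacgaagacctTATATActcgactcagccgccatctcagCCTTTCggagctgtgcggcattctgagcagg
Snhg5, chr9:88522868-88522937, minus strand: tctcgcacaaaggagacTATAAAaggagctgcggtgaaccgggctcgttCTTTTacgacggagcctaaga
Snhg8, chr3:123508307-123508376, minus strand: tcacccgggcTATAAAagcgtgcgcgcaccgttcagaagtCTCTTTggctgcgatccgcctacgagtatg
Snhg12, chr4:132308638-132308707, plus strand: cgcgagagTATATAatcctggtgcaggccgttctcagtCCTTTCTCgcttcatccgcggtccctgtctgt
Snhg1, chr19:8723447-8723516, plus strand: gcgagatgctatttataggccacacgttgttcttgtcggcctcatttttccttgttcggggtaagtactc
Snhg3, chr4:132353657-132353726, minus strand: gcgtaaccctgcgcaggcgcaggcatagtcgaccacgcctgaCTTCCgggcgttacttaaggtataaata

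TATAAA or TATATA was found in 4 of the 7 windows, the downstream start of *Gas5* and the starts of *Snhg5*, *Snhg8* and *Snhg12*, against 3.67% of 32851 RefSeq promoters searched in the same way. On the opposite strand the same words were found in 3 of the 7 and in 2.36% of all promoters. TATATA reads the same on both strands, so these matches are in part the same bases. The pyrimidine tract was found in 5 of the 7 windows and in 39.5% of all promoters, and both features together in 4 of 7 and in 1.60% of all. The genes with both features include *Snhg5* and *Snhg12*, which were higher in ESC + F/H-BAZ2ArΔTAM, and *Gas5* and *Snhg8*, which were lower. A match is only a match of letters, and no binding or start site was measured here.

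The comparison of ESC + F/H-BAZ2ArΔTAM with ESC + F/H-BAZ2ArWT addresses which transcripts change when BAZ2A lacks its RNA-binding TAM domain. Among the host genes, *Snhg1*, *Snhg4*, *Snhg5* and *Snhg12* were higher and *Gas5* and *Snhg8* were lower in ESC + F/H-BAZ2ArΔTAM. *Gas5* fell by 9.85% and *Snhg8* fell by 14.7% on the fitted scale, while the increases ran from 14.3% for *Snhg12* to 30.3% for *Snhg4*. *Snhg6* was 9.65% higher on that scale and did not pass the test. Of the 7 tested hosts, 6 had an adjusted p under 0.05 in limma, 4 higher and 2 lower. Over all 8997 genes tested, 35.8% were called in either direction, 19.9% higher and 15.9% lower. None of the 7 reached the study's threshold of an absolute log2FC of 0.58 with an unadjusted p under 0.05, which 3.79% of all genes tested reached. The threshold was applied here to the limma fit on log2(RPKM + 0.1) and its filtered genes, not to the study's own fold changes. The median log2 fold change of the 7 hosts was 0.19 against 0.011 over all genes tested. In each of the 7 the values of the 4 ESC + F/H-BAZ2ArΔTAM libraries did not overlap those of the 4 ESC + F/H-BAZ2ArWT libraries, as was the case for 37.2% of all genes tested.

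**Figure D2:**
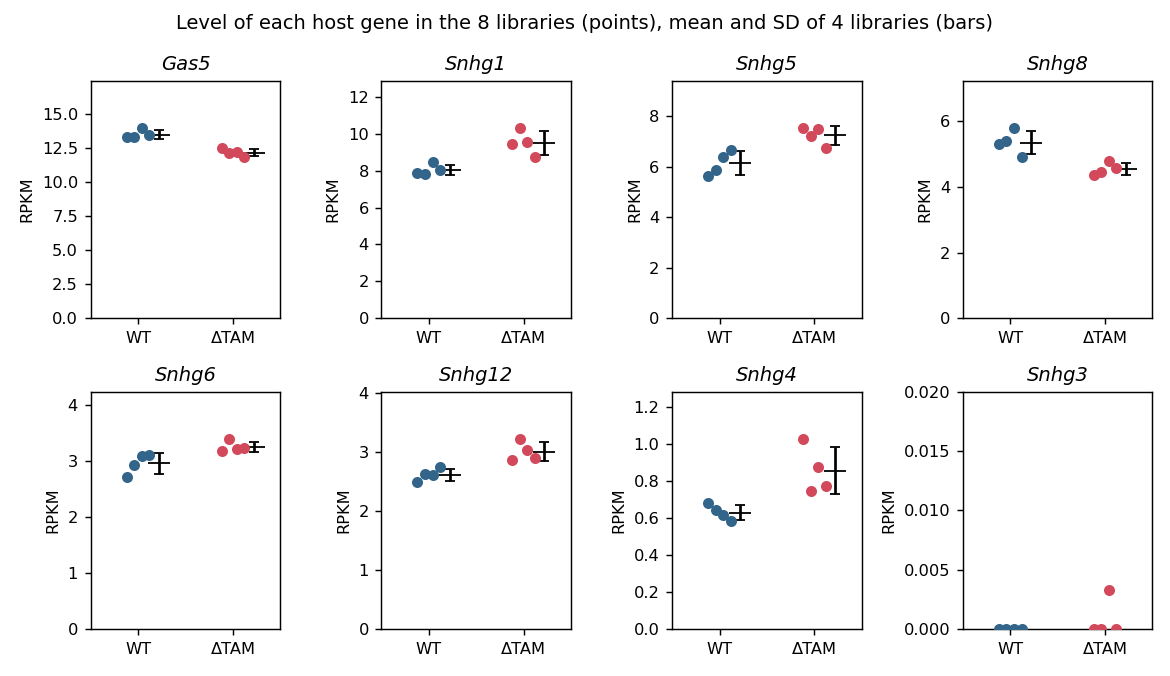
RPKM of the 8 host genes in each library (points), with the mean and SD of the 4 libraries of a line (bars; none drawn for *Snhg3*). Each vertical axis starts at 0 and has its own range. The 2 lines are separated without overlap in every panel but that of *Snhg3*, which is listed at 0 in 7 libraries.

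*Gas5*, whose name stands for growth arrest specific, lies on chromosome 1 of mm10 from 161034422 to 161038539, on the plus strand, and is the host of the C/D box snoRNAs Snord47, Snord78 and Snord80. It was at 13.3, 13.3, 13.9 and 13.4 RPKM in ESC + F/H-BAZ2ArWT and at 12.5, 12.1, 12.2 and 11.8 RPKM in ESC + F/H-BAZ2ArΔTAM, from 2182 to 2851 reads per library. Every ESC + F/H-BAZ2ArΔTAM library was below every ESC + F/H-BAZ2ArWT library. The mean fell from 13.5 ± 0.305 RPKM (SD, n = 4) to 12.1 ± 0.27 RPKM (SD, n = 4). Its log2FC of -0.15 had an SE of 0.026 and a limma adjusted p of 0.00337. It was the smallest change among the 6 called hosts and had the lowest adjusted p among the hosts in this fit.

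*Snhg1* is the host of Snord22 and of 7 further snoRNAs, and lies on chromosome 19 from 8723475 to 8726443 on the plus strand. Its values were 7.85, 7.84, 8.46 and 8.02 RPKM in ESC + F/H-BAZ2ArWT and 9.44, 10.3, 9.56 and 8.73 RPKM in ESC + F/H-BAZ2ArΔTAM, from 1159 to 1512 reads per library. Replicate 4 of ESC + F/H-BAZ2ArΔTAM was the lowest of its line and still above all ESC + F/H-BAZ2ArWT libraries. *Snhg1* rose from 8.04 ± 0.288 to 9.50 ± 0.639 RPKM (SD, n = 4 each), with a log2FC of 0.24 (SE 0.051, limma adjusted p = 0.00927).

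*Gas5* and *Snhg1*, the hosts with the most reads, therefore moved in opposite directions. *Gas5* held 49.4% to 50.5% of the reads of all 8 hosts in ESC + F/H-BAZ2ArWT and 42.9% to 44.7% in ESC + F/H-BAZ2ArΔTAM. Per read on *Gas5*, between 0.425 and 0.438 reads fell on *Snhg1* in ESC + F/H-BAZ2ArWT and between 0.533 and 0.613 in ESC + F/H-BAZ2ArΔTAM. This ratio was chosen after the values were seen and is given without a test. The 8 hosts together took 726.7 to 773.5 reads per M reads on genes in ESC + F/H-BAZ2ArWT and 728.7 to 781.5 in ESC + F/H-BAZ2ArΔTAM, ranges that overlap for most of their length.

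*Snhg4* carries the H/ACA box snoRNA Snora74a and lies on chromosome 18 from 35553371 to 35558316 on the plus strand, where GENCODE vM21 names the gene AC121821.1. It had 0.679, 0.640, 0.614 and 0.58 RPKM in ESC + F/H-BAZ2ArWT and 1.02, 0.743, 0.876 and 0.773 RPKM in ESC + F/H-BAZ2ArΔTAM, from 148 to 231 reads per library. Replicate 1 of ESC + F/H-BAZ2ArΔTAM was the highest, and the spread in that line was wider than in ESC + F/H-BAZ2ArWT. The mean rose from 0.628 ± 0.0419 to 0.854 ± 0.127 RPKM (SD, n = 4 each), a log2FC of 0.38 (SE 0.093, limma adjusted p = 0.0153), the largest among the hosts tested. The pseudocount of 0.1 RPKM understates the change of a low gene, and the log2FC from recovered reads was 0.43 (adjusted p = 9.84e-04 from limma voom). With a pseudocount of 1 RPKM the log2FC of *Snhg4* was 0.185, below 0.214 for *Snhg1* and 0.208 for *Snhg5*, so its rank depends on the scale.

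*Snhg5*, the host of Snord50a and Snord50b, lies on chromosome 9 from 88521050 to 88522929 on the minus strand. Its values were 5.64, 5.87, 6.38 and 6.66 RPKM in ESC + F/H-BAZ2ArWT and 7.51, 7.20, 7.51 and 6.73 RPKM in ESC + F/H-BAZ2ArΔTAM, from 527 to 752 reads per library. The groups were separated by the small gap between 6.66 and 6.73 RPKM. The log2FC was 0.24 (SE 0.060, limma adjusted p = 0.0186), and the mean rose from 6.14 ± 0.466 to 7.24 ± 0.366 RPKM (SD, n = 4 each). With the replicate number as a block the adjusted p was 0.0604 in limma, without ESC + F/H-BAZ2ArWT replicate 2 it was 0.0506 and without ESC + F/H-BAZ2ArΔTAM replicate 3 it was 0.0513, so the call was lost in each of these fits.

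*Snhg12* carries 4 snoRNAs of both classes, Snora16a, Snora44, Snora61 and Snord99, and lies on chromosome 4 from 132308678 to 132311024 on the plus strand. It was at 2.50, 2.62, 2.61 and 2.74 RPKM in ESC + F/H-BAZ2ArWT and at 2.87, 3.22, 3.03 and 2.91 RPKM in ESC + F/H-BAZ2ArΔTAM, from 291 to 396 reads per library. All ESC + F/H-BAZ2ArΔTAM libraries were above all ESC + F/H-BAZ2ArWT libraries. The mean rose from 2.62 ± 0.101 to 3.01 ± 0.159 RPKM (SD, n = 4 each), with a log2FC of 0.19 (SE 0.044, limma adjusted p = 0.0119). After quantile normalization the adjusted p from limma was 0.0502.

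*Snhg8* is the host of the H/ACA box snoRNA Snora24 and lies on chromosome 3 from 123507552 to 123508404 on the minus strand. Its values were 5.31, 5.40, 5.78 and 4.91 RPKM in ESC + F/H-BAZ2ArWT and 4.36, 4.45, 4.80 and 4.57 RPKM in ESC + F/H-BAZ2ArΔTAM, from 166 to 240 reads per library. The lowest ESC + F/H-BAZ2ArWT library, replicate 4, was above the highest ESC + F/H-BAZ2ArΔTAM library, replicate 3. *Snhg8* fell from 5.35 ± 0.357 to 4.54 ± 0.19 RPKM (SD, n = 4 each), with a log2FC of -0.23 (SE 0.052, limma adjusted p = 0.0116).

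*Snhg6*, the host of Snord87, lies on chromosome 1 from 9941959 to 9944118 on the minus strand. It was at 2.71, 2.91, 3.09 and 3.11 RPKM in ESC + F/H-BAZ2ArWT and at 3.17, 3.38, 3.22 and 3.22 RPKM in ESC + F/H-BAZ2ArΔTAM, from 291 to 404 reads per library. The groups did not overlap, but the log2FC of 0.13 (SE 0.047) had an adjusted p of 0.0594 in limma and its 95% interval ran from 0.025 to 0.24 before adjustment. The adjusted p was 0.0461 when genes with a mean under 1 RPKM were left out and 0.0453 without ESC + F/H-BAZ2ArWT replicate 4, and in the other alternatives it was above 0.05. Per 100 reads on *Snhg6*, between 1.73 and 4.00 reads fell on *Snord87* in ESC + F/H-BAZ2ArWT and between 3.44 and 5.68 in ESC + F/H-BAZ2ArΔTAM, ranges that overlap. The reads on *Snord87* may come from unspliced *Snhg6*, which was not tested.

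*Snhg3*, the host of the H/ACA box snoRNAs Snora73a and Snora73b, lies on chromosome 4 from 132348014 to 132353686 on the minus strand. It was listed at 0 in 7 libraries, and 1 read was counted in replicate 3 of ESC + F/H-BAZ2ArΔTAM. A count of 0 allows up to 3 reads, which for this gene is 0.00911 to 0.0121 RPKM depending on the library, for counting error only. Of its 986 exon bases, 29.8% are shared with other genes of the same strand and 86.3% with genes of either strand, which leaves 135 bases of its own. *Rcc1*, which encodes the nucleotide exchange factor of the GTPase Ran and overlaps *Snhg3* on the same strand, had between 1222 and 1702 reads per library and a log2FC of 0.084 (SE 0.033, limma adjusted p = 0.0846). The noncoding gene *Gm17300*, which overlaps it on the opposite strand, had 21 to 27 reads in ESC + F/H-BAZ2ArWT and 34 to 39 in ESC + F/H-BAZ2ArΔTAM, a log2FC of 0.50 (SE 0.11, limma adjusted p = 0.00943). Reads of *Snhg3* and of these genes may not have been told apart by the authors' counting, and the value listed for *Snhg3* is uncertain.

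**Figure D3:**
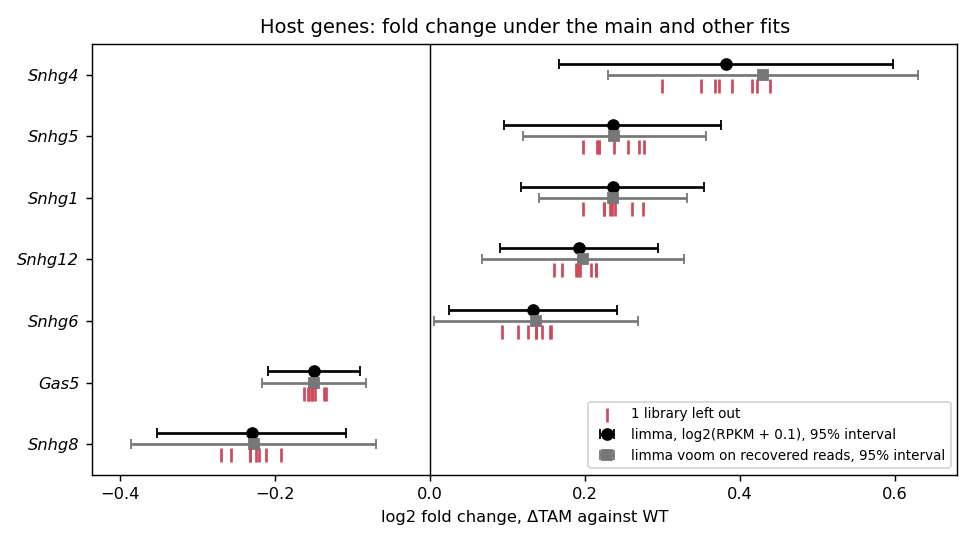
Log2 fold change of the 7 tested host genes, ESC + F/H-BAZ2ArΔTAM against ESC + F/H-BAZ2ArWT. Circles give limma on log2(RPKM + 0.1) and squares limma voom on recovered reads, both with 95% intervals before adjustment, and ticks give the fits with 1 library left out. No estimate crosses 0, and those of *Snhg4* spread most, from 0.30 to 0.44 when 1 library is left out.

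The fit on recovered reads called the same 6 hosts in the same directions, with an adjusted p between 2.29e-04 and 0.0189 in limma voom. In that fit 43.9% of 12657 genes were called, and *Snhg6* had an adjusted p of 0.0842. With each library left out in turn, *Gas5*, *Snhg1*, *Snhg4*, *Snhg8* and *Snhg12* kept an adjusted p under 0.05 in all 8 fits, the highest being 0.0416 for *Snhg4* in limma.

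The deposited RPKM are per kilobase of genomic span. To compare levels between hosts, reads were divided by the length of all GENCODE vM21 exons of the gene and scaled per M reads on genes. On this scale *Gas5* was highest, at 99.2 ± 2.25 reads per exon kilobase per M (SD, n = 4) in ESC + F/H-BAZ2ArWT and 89.1 ± 2.25 (SD, n = 4) in ESC + F/H-BAZ2ArΔTAM. *Snhg1* followed at 54.0 ± 1.95 and 63.7 ± 4.15, and *Snhg5* at 44.8 ± 3.51 and 52.7 ± 2.73 (SD, n = 4 each). *Snhg6* had 37.4 ± 2.39 and 41.0 ± 1.06 on the same scale, and *Snhg8* had 35.9 ± 2.32 and 30.4 ± 1.18 (SD, n = 4 each). *Snhg12*, at 17.2 ± 0.699 and 19.7 ± 0.965, and *Snhg4*, at 4.48 ± 0.29 and 6.07 ± 0.929 (SD, n = 4 each), were lower, and *Snhg3* was last. The order of the means was the same in both lines. In ESC + F/H-BAZ2ArWT the ranges of *Snhg6* (34.3 to 39.5) and *Snhg8* (33.1 to 38.8) overlap, whereas in ESC + F/H-BAZ2ArΔTAM *Snhg6* (40.3 to 42.6) lies above *Snhg8* (29.4 to 32.0). These levels depend on the annotation, because exons of transcripts with retained introns lengthen most hosts.

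The genes beside and across the hosts were examined next. By position, 20 genes overlap a host or are the nearest gene above the filter on one side. Of these, 18 were tested, and 4 were higher, 4 lower and 10 not called, against the 35.8% called among all genes. *Mcmdc2*, which overlaps *Snhg6* on the opposite strand, was under the filter. It had 27 to 38 reads in ESC + F/H-BAZ2ArWT and 18 to 28 in ESC + F/H-BAZ2ArΔTAM, with a log2FC of -0.60 (adjusted p = 0.0219 from limma voom). *Vcpip1*, left of *Snhg6*, was not called in limma (adjusted p = 0.0787) but was called in limma voom (adjusted p = 0.0282). *Zbtb37*, a zinc finger gene that overlaps *Gas5* on the opposite strand, had a log2FC of 0.19 (SE 0.053, limma adjusted p = 0.0281). *Rc3h1*, the gene of the RNA-binding protein Roquin-1, lies 59444 bases left of *Gas5* and had one of 0.16 (SE 0.043, limma adjusted p = 0.0225). From recovered reads the log2FC in limma voom was 0.33 for *Zbtb37* and 0.31 for *Rc3h1*. For both of these the adjusted p rose above 0.05 in some alternatives, to 0.0748 and 0.0629 at most, and with the replicate block it was 0.0583 for *Rc3h1*.

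*Slc3a2*, which encodes the heavy chain of amino acid transporters at the cell surface, starts 106 bases from the start of *Snhg1* on the opposite strand. It fell from 3.60 ± 0.0839 to 2.45 ± 0.0764 RPKM (SD, n = 4 each), with a log2FC of -0.54 (SE 0.030, limma adjusted p = 3.02e-05), whereas *Snhg1* rose. On the other side of *Snhg1*, *Stx5a* had a log2FC of 0.13 and did not pass the test (limma adjusted p = 0.0640). Its adjusted p was 0.0400 in limma voom and 0.0282 in limma without ESC + F/H-BAZ2ArWT replicate 1. In 14 of 16 alternatives it was at least 0.05. *Taf12*, which encodes a subunit of the transcription factor TFIID, is the nearest gene above the filter left of *Snhg12*, at 12912 bases. It rose by 0.30 on the log2 scale (SE 0.042, limma adjusted p = 0.00136), and by 0.48 from recovered reads in limma voom. *Trnau1ap*, 739 bases to the right of *Snhg12*, had a log2FC of 0.084 (limma adjusted p = 0.225). *Mettl14*, a subunit of the RNA m6A methyltransferase, is the nearest gene above the filter left of *Snhg8*, at 121444 bases. It had a log2FC of -0.17 (limma adjusted p = 0.0207, and up to 0.0565 in the alternatives). *Ctnna1*, the gene of alpha-catenin 298598 bases left of *Snhg4*, had one of -0.098 (adjusted p = 0.0110, and 0.0502 with the replicate block, from limma). Strand use in counting is not given in the sources used here, so reads on bases that overlapping genes share cannot be told apart. For *Gas5* in GENCODE vM21, 17.8% of exon bases are shared with genes of its own strand. The share is the same 17.8% with genes of either strand.

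Other parts of the snoRNA pathway were examined through lists drawn up for this purpose. Of 13 other noncoding snoRNA hosts, 11 had an entry and 8 were tested, of which 2 were called, both higher (median log2 fold change 0.086), beside the 35.8% called among all genes tested. voom called 2 higher and 2 lower of 9, beside 43.9% of all genes in that fit. *Dancr* rose from 0.780 ± 0.0361 to 1.15 ± 0.135 RPKM (SD, n = 4 each; log2FC 0.50, SE 0.076, limma adjusted p = 0.0020). *Snhg17* had a log2FC of 0.15 (SE 0.039, limma adjusted p = 0.0190), but its adjusted p rose to 0.0639 in the fit with the replicate block, to 0.0502 when ESC + F/H-BAZ2ArWT replicate 3 was left out and to 0.0733 after quantile normalization.

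All 32 protein-coding snoRNA hosts, most of them genes of ribosomal proteins and translation factors, were tested, and 14 were called, 5 higher and 9 lower, with a median log2FC of -0.022, beside 35.8% of all genes tested. voom called 9 higher and 11 lower, beside 43.9% of all genes in that fit. *Eif4a2*, a translation initiation helicase gene, fell from 31.3 ± 1.80 to 22.0 ± 1.12 RPKM (SD, n = 4 each; log2FC -0.51, SE 0.051, limma adjusted p = 2.79e-04). *Hspa8*, the gene of the constitutive chaperone HSC70, rose from 23.8 ± 0.503 to 30.5 ± 1.28 RPKM (SD, n = 4 each; log2FC 0.36, SE 0.034, limma adjusted p = 2.25e-04). *Taf1d*, which encodes a subunit of the RNA polymerase I factor SL1, rose by 0.35 on the log2 scale (SE 0.071, limma adjusted p = 0.00755). The difference between coding and noncoding hosts was not tested.

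Of 18 tested genes of proteins that bind snoRNAs or assemble them into particles, 3 were higher and 1 was lower, with a median log2FC of 0.011, beside the 35.8% called among all genes tested. Among those called, the largest change on the scale of log2(RPKM + 0.1) was that of *Znhit3*, an assembly factor of C/D box particles (0.20, SE 0.046, limma adjusted p = 0.0131). This scale understates the change of low genes, and the order holds for it only. *Znhit3* rose from 0.476 to 0.559 RPKM and *Naf1* from 0.196 to 0.233 RPKM. *Snu13*, a core protein of C/D box particles (0.18, limma adjusted p = 0.0418), and *Naf1*, an assembly factor of H/ACA box particles (0.17, limma adjusted p = 0.0378), had an adjusted p above 0.05 in 8 alternatives each, up to 0.0884 and 0.0861. With the replicate block their adjusted p was 0.0713 and 0.0796 in limma, and 1 of the 18 was called. Leaving out 1 library gave between 1 and 4 calls, with 1 call without ESC + F/H-BAZ2ArWT replicate 2 or 3 or ESC + F/H-BAZ2ArΔTAM replicate 2, and 2 calls without ESC + F/H-BAZ2ArΔTAM replicate 1, 3 or 4.

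Of 16 tested NMD factors, 3 were called, all higher, with a median log2FC of 0.056, beside 35.8% of all genes tested in either direction and 19.9% higher. voom called 4 higher and 2 lower of 18, beside 43.9% of all genes in that fit. *Rbm8a*, which encodes a core protein of the exon junction complex, rose from 6.94 ± 0.109 to 7.65 ± 0.107 RPKM (SD, n = 4 each; log2FC 0.14, SE 0.021, limma adjusted p = 0.00203). *Eif4a3*, the helicase of that complex (0.21, limma adjusted p = 0.0304), and *Smg5*, an NMD effector (0.13, limma adjusted p = 0.0352), were above 0.05 in 9 and 7 alternatives, up to 0.0768 and 0.0868. One of these is the replicate block for *Eif4a3* (limma adjusted p = 0.0609). The list had 1 call without ESC + F/H-BAZ2ArWT replicate 1 or 4 or without ESC + F/H-BAZ2ArΔTAM replicate 2 or 3.

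**Figure D4:**
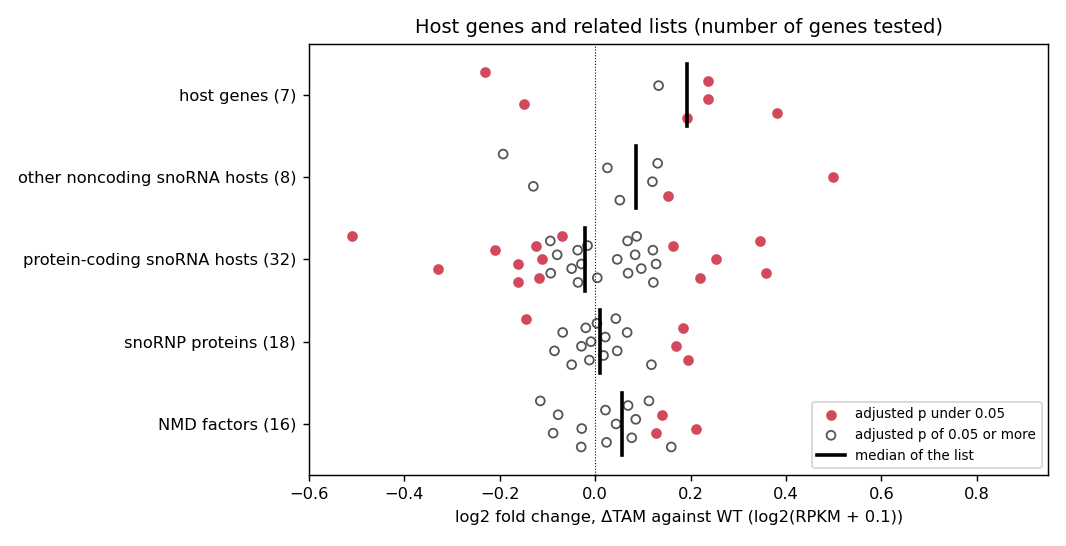
Log2 fold change of each tested gene in the host genes and 4 related lists, on the scale of log2(RPKM + 0.1). Filled points had an adjusted p under 0.05 and black lines mark the median of each list. The host genes have 6 filled points of 7, on both sides of 0, beside 35.8% called among all genes tested. Their median is 0.19, and the medians of the other lists lie between -0.022 and 0.086. Differences between the lists were not tested.

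Last, the genes whose pattern over the 8 libraries was most like that of *Snhg4*, the host with the largest fold change, were looked up among 2138 other genes whose mean was 1 RPKM or more. Likeness was measured as the root mean square difference of log2(RPKM + 0.1) values, each gene centred on its own mean over the 8 libraries. The closest were *Tob1* (difference 0.081), *Polr2i* (0.11) and *Ifitm3* (0.11). *Tob1*, which encodes an antiproliferative protein of the BTG family, rose from 1.44 to 1.98 RPKM, and *Polr2i*, the gene of an RNA polymerase II subunit, from 2.91 to 3.94 RPKM, with log2FCs of 0.43 each. *Ifitm3*, an interferon-induced membrane protein gene, had 14.5 and 18.0 RPKM and a log2FC of 0.32. As these genes were selected for likeness to *Snhg4*, their fold changes are a description.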

How the data were processed

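RNA-seq libraries of polyA-enriched RNA from 8 samples, 4 per line, were compared by the conditions in their labels. The authors removed ribosomal reads, trimmed adapters (Trimmomatic 0.36 in the submitters' processing notes), mapped to mm10 with STAR, used their own pipeline to count exon coverage, and deposited RPKM for each library. The annotation release is not given in the sources used here. Of 51288 entries, 386 that repeated a symbol were set aside. RPKM times genomic span gave whole reads for 99.5% of values (tolerance 0.01), so the RPKM are per kilobase of span.

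limma 3.58.1 (R 4.3.3) was run on log2(RPKM + 0.1) for the 8997 genes whose mean reached 0.1 RPKM, with lmFit and eBayes with a trend, no covariates and Benjamini-Hochberg adjustment over all of them. limma voom was run on the recovered reads where their mean reached 10. The procedure was tested on simulated data. Members and gene lists were chosen with earlier results of these data known. Named were all hosts, the 3 genes with the largest change among those called in each list, nested snoRNAs with reads, overlapping and neighboring genes, and the 3 genes most like the host with the largest change. Of the genes under this rule, 1 is not reported here. Figures were drawn with matplotlib 3.10.9 in Python 3.11.15.

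The same replicate numbers occur in both lines. Deviations from the line means correlated within each same-numbered pair (r = 0.33, 0.14, 0.20 and 0.24 over 2144 genes with at least 1 RPKM), which is a pairing seen in the data and not stated in the labels. Alternatives were other pseudocounts (0.01 and 1 RPKM), filters (none, or 1 RPKM), scalings (median ratio and quantile), eBayes without the trend, the replicate block, voom and each library left out. Leave-one-out fits of the related lists and all alternatives for genes other than the hosts were added after the data were seen.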

Additional observations from a re-analysis of the deposited data

How the results depend on the processing

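All 7 tested hosts kept their direction in every alternative run, and the number called was 5 to 7 against 6, with 2 lower in each. With the replicate block the adjusted p of *Snhg5* was 0.0604 (log2 fold change 0.24), and *Snhg12* after quantile normalization had 0.15. The block changed no other call of a host, and called 1 other noncoding host against 2 and 1 snoRNP protein against 4. *Snhg6* passed with a filter of 1 RPKM (0.13). With each library left out the log2 fold changes ran from 0.20 to 0.28 for *Snhg5* and from 0.094 to 0.16 for *Snhg6*. The median over the hosts was 0.15 with a pseudocount of 1 and 0.15 after quantile normalization, against 0.19. voom called 4 other noncoding hosts and 6 NMD factors. With 1 library left out the calls ran from 1 to 2 for other noncoding hosts, from 1 to 4 for snoRNP proteins and from 1 to 3 for NMD factors. *Snora16a*, which was not called, ranged from -0.021, without ESC + F/H-BAZ2ArWT replicate 2, to 0.25, without ESC + F/H-BAZ2ArΔTAM replicate 1. The cause of these differences was not tested. *Snhg3* was under the filter and gave no result to compare, and *Snhg4* none with a filter of 1 RPKM. The 6 to 21 reads on *Snord87* limit what could be detected for it.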
